A study of Homo sapiens with 12 samples.

Results

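The expression of 10 genes that act on the protein NFE2L1 after it is made was measured by RNA sequencing in A549 cells, an established human lung carcinoma line. The genes were VCP, SYVN1, SEL1L, DERL1, NGLY1, DDI2, FBXW7, BTRC, OGT and HCFC1. They were taken by name for what their products do to NFE2L1, with earlier results of these data known. All 10 were found among the 58676 genes of the deposited table, and all 10 were among the 12194 genes whose mean FPKM over the 12 libraries was at least 1. FPKM is the number of fragments per kilobase of gene, scaled to the reads assigned to genes in that library. The cells were a control line (labelled Control1) and 2 lines with a knockout of the NFE2L1 gene (NFE2L1 KO1 and NFE2L1 KO2). Each line was given DMSO as vehicle or 200 nM bortezomib, a proteasome inhibitor, for 4 h. Each of the 6 groups had 2 libraries. The control is a single line and the knockout is in 2 lines, so a difference between genotypes is also a difference between lines. The labels do not say that the 2 libraries of a group came from separate cultures, so p-values measure only the spread between these libraries.

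NFE2L1 is a transcription factor that is inserted into the membrane of the endoplasmic reticulum and glycosylated there. It is then pulled out by the ER-associated degradation machinery. In cells with working proteasomes it is degraded quickly. When proteasomes are inhibited, the extracted protein is stripped of its N-glycans, cut by a protease and moved to the nucleus, where it raises transcription of proteasome subunit genes. The SYVN1 and SEL1L ubiquitin ligase complex, the DERL1 channel protein and the VCP ATPase act at the membrane. NGLY1 removes the glycans, DDI2 makes the cut, the F-box proteins FBXW7 and BTRC mark NFE2L1 for degradation, and OGT with its partner HCFC1 attaches O-linked N-acetylglucosamine. Most of these steps act on protein, and only transcripts were measured here.

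The libraries held 13211608 to 23819258 assigned reads. The 6 libraries with R2 in the title stood apart from the other 6. Mitochondrial genes took 12.3% to 19.3% of the reads in the R2 libraries and 5.44% to 6.8% in the others. With the mitochondrial genes left out and FPKM rescaled, the number of the 10 genes called for bortezomib in the control line and over the 3 lines did not move, either in the fit with the replicate block used below or in the fit without it. Each group has 1 R2 library, so values are given below both over all libraries and pair by pair within R2 and within the rest. The other library of a KO group is titled R1 and the other library of a control group has no suffix. Each was set beside the other in pairs although the labels do not state that they belong together. In vehicle, NFE2L1 itself was at 72.7 FPKM without suffix and 151 in R2 in the control line. It was at 8.45 and 14.8 in KO1 and at 18.6 and 33.6 in KO2 (R1 and R2). In bortezomib it was at 109 and 189 (control line), 27 and 35.8 (KO1), and 36.7 and 50.8 (KO2). Every KO library was thus below every control library, although NFE2L1 reads remained in both KO lines. All 6 epithelial markers examined (EPCAM, CDH1, KRT7, KRT8, KRT18 and KRT19) were at 1 FPKM or more in every library. Of 4 leukocyte markers, CD14 reached 3.63 FPKM and PTPRC 0.0602, and their sum was 0 to 3.63. The 3 endothelial markers summed to at most 0.24. Of 4 fibroblast markers (sum 1.85 to 24.1), COL1A1 was at 1.42 to 23.3 FPKM, LUM reached 1.4 and DCN 0.0425. The part of these markers in the results was not tested.

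The 10 genes fell into tiers of FPKM that were kept in all 12 libraries. FPKM is corrected for 1 deposited length per gene, 5438 bases for VCP and 12136 for DDI2. Whether these lengths match the transcripts made in these cells was not tested. Levels are set side by side between genes with that limit, and with another where genes overlap. DDI2 shares its region with RSC1A1 on the same strand, which had a mean of 0 reads. How reads in a shared stretch were assigned is not stated in the sources used here, so the level of DDI2 may be understated. VCP was at a mean of 112 FPKM over the 12 libraries (57 to 174), higher than 98.2% of the genes tested, and ranked first of the 10 in every library. SEL1L was at 36 (21.7 to 47.7), OGT at 34.3 (18.3 to 69.5), HCFC1 at 24.7 (13.4 to 39.9), SYVN1 at 21.3 (11.6 to 35.4) and DERL1 at 20.1 (10.6 to 32.2). The ranges of these 5 overlapped and they changed places between libraries. BTRC was at 4.6 (2.73 to 7) and NGLY1 at 4.25 (2.7 to 5.8), and they always held places 7 and 8. DDI2 was at 2.41 (1.25 to 3.78) and FBXW7 at 1.41 (1.01 to 1.99), and they always held places 9 and 10. FBXW7 was higher than 8.22% of the genes tested and was covered by 172 to 417 reads a library. DDI2 was covered by 283 to 913 reads.

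**Figure D1:**
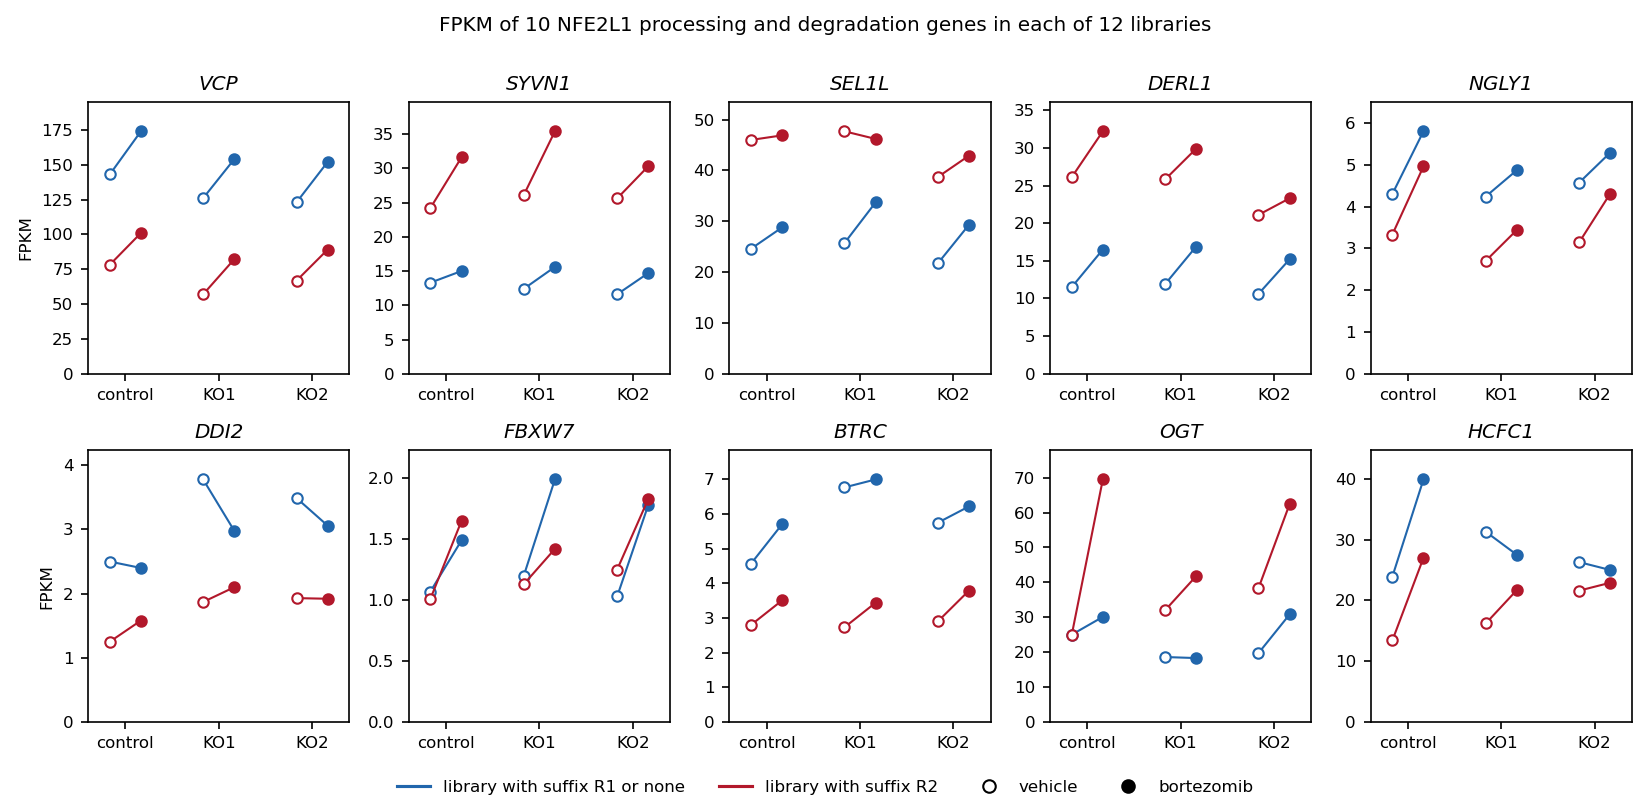
FPKM of each of the 10 genes (vertical axis, linear, from 0) in the control, KO1 and KO2 lines. Open points are vehicle and filled points bortezomib, 1 point per library, and lines join the vehicle and bortezomib libraries with the same suffix; R2 libraries are red and the others blue. VCP lies between 57 and 101 in the R2 libraries and between 123 and 174 in the others, while FBXW7 is at 1.01 to 1.25 in vehicle and 1.42 to 1.99 in bortezomib.

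Most of these genes also differed in level between the R2 libraries and the others. The mean of the R2 libraries over that of the others was 2.1 for SYVN1, 1.92 for DERL1, 1.89 for OGT and 1.64 for SEL1L. It was 0.532 for BTRC, 0.544 for VCP, 0.585 for DDI2, 0.706 for HCFC1, 0.753 for NGLY1 and 0.968 for FBXW7. For 6 of the 10 (VCP, SYVN1, SEL1L, DERL1, DDI2 and BTRC) the R2 libraries did not overlap the others, against 30.0% of all genes tested. The genes of 1 step did not share a direction: the membrane components SYVN1, SEL1L and DERL1 were high in R2, and VCP, which works with them, was low.

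RefSeq promoters (build GRCh38.p14, from 250 bases before to 50 after a transcript's start) were listed for 7 of the 10 genes. They numbered 11 in all. DERL1, BTRC and HCFC1 had no entry. Motifs of stress-responsive factors were searched on both strands. The core of the antioxidant response element, which NFE2L1 and its relatives bind, was searched as TGAC, any 3 bases, then GC. It is in 13.3% of the 35116 RefSeq promoters, and 4 of the 11 promoters held it, 1 each of VCP, OGT, SEL1L and FBXW7. The core of the unfolded protein response element (TGACGTGG) is in 0.729% of promoters and was found in VCP alone, where it overlaps the antioxidant match. The ER stress response element (CCAAT, any 9 bases, CCACG), its second form (ATTGG, any 1 base, CCACG), the C/EBP-ATF element (TGATG, any 1 base, AA) and the heat shock element (GAA, any 2 bases, TTC, any 2 bases, GAA) are in 0.0769%, 0.0541%, 3.62% and 0.49% of promoters. None of the 11 promoters held any of these 4. The match in VCP begins at position -189 from the transcript's start, that in OGT at -203 and that in SEL1L at -34. The SEL1L match lies on the reverse strand. The FBXW7 match, at position 12, is in 1 of its 4 promoters, an internal one that is not printed. Below, capitals mark the antioxidant matches, and the promoters of NGLY1 and SYVN1 are printed as members without a match. The promoters lie at chr9:35072576-35072875 (VCP, minus strand), chrX:71532854-71533153 (OGT, plus strand), chr14:81533804-81534103 (SEL1L, minus strand), chr3:25789990-25790289 (NGLY1, minus strand) and chr11:65134470-65134769 (SYVN1, minus strand). A match is a description of the letters only, and a link of matches to the bortezomib response was not tested.
VCP: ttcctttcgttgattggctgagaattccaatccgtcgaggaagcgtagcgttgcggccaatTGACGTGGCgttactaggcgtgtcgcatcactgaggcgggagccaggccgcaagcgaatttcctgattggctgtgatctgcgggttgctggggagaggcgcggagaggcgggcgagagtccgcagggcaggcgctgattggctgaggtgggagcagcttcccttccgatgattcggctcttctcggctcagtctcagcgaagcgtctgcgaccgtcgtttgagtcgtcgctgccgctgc
OGT: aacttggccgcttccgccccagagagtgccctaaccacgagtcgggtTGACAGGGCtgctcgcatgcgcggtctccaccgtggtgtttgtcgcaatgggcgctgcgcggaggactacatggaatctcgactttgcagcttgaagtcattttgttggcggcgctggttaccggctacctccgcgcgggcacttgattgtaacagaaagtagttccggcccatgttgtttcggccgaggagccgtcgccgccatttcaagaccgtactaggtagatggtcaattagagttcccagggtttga
SEL1L: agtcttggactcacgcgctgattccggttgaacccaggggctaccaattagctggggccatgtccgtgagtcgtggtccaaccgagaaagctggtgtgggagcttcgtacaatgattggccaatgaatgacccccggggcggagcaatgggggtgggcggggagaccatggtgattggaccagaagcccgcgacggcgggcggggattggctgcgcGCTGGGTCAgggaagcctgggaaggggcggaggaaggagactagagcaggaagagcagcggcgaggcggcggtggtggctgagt
NGLY1: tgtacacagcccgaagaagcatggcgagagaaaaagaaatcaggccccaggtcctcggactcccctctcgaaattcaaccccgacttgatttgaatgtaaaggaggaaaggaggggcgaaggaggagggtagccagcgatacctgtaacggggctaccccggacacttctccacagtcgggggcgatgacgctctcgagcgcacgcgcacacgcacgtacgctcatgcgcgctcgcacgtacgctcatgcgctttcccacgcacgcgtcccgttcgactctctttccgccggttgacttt
SYVN1: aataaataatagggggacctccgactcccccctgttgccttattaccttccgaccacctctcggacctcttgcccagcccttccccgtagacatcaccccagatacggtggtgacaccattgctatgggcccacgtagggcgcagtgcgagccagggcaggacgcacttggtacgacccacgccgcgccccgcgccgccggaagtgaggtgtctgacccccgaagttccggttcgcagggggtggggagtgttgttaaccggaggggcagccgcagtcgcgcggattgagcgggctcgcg

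Transcripts of most of the machinery were slightly higher in bortezomib than in vehicle, and the calls depended on how the R2 libraries were treated. Over the 3 lines, 9 of the 10 genes had a fitted difference above 0, and the median of the 10 was 0.31 on the log2(FPKM + 1) scale, against -0.01 for all genes tested. In the test without a replicate term (limma, 12194 genes, adjusted p under 0.05), 0 of the 10 passed, where 11.6% of all genes did. FBXW7 alone (1 of the 10) had an unadjusted p-value under 0.05, against 3275 of the 12194 genes. With the title suffix as a replicate block, which removes the gap between R2 and the other libraries, 7 of the 10 rose, where 27.0% of all genes rose and 27.9% fell. The 7 were VCP, SYVN1, DERL1, NGLY1, FBXW7, OGT and HCFC1. In 6 of the 10 the bortezomib library was above its vehicle partner in all 6 pairs, against 24.8% of genes tested. None of the 10 was lower in all 6 pairs, against 23.8%. The fitted fold changes are ratios of FPKM + 1, and those of the 7 lay between 1.23 and 1.47. Those of SEL1L, BTRC and DDI2, which did not pass, were 1.14, 1.15 and 0.984. These fitted values average over the 3 lines. They understate the change of low genes and do not order the 7 by change in FPKM. For FBXW7, the lowest of the 10, the FPKM ratios of the pairs were 1.26 to 1.73.

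**Figure D2:**
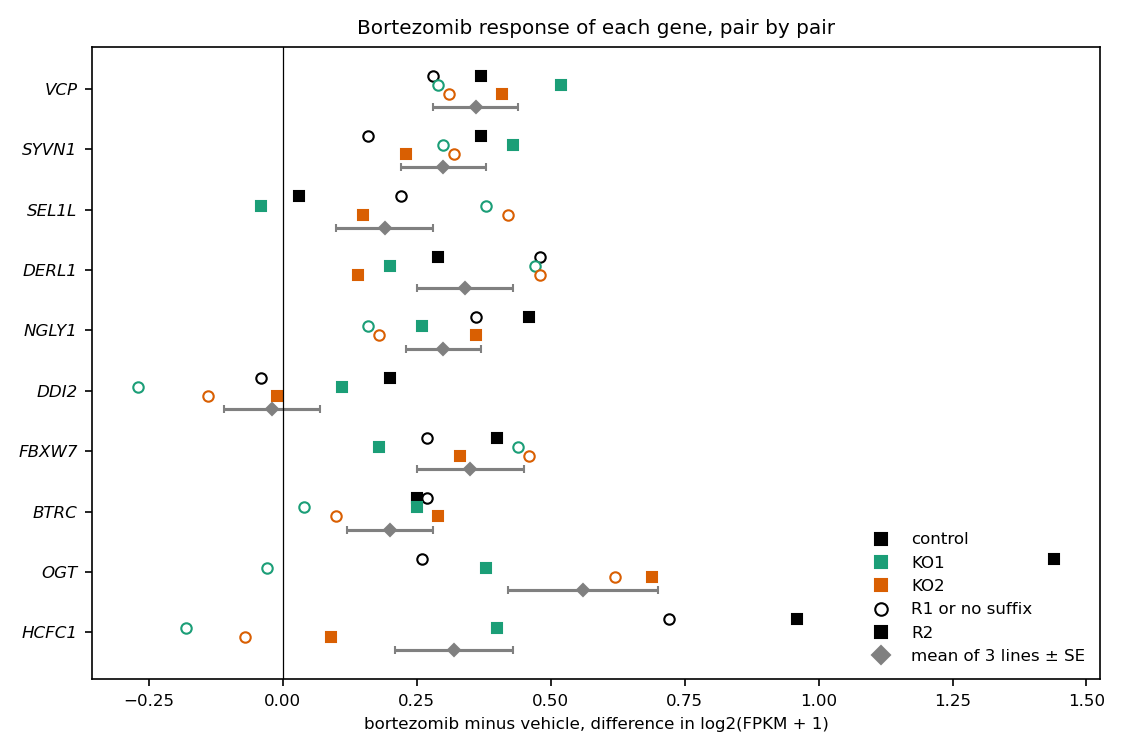
Difference in log2(FPKM + 1) between the bortezomib and vehicle library of each of 6 pairs (horizontal axis) for each gene. Circles are pairs of libraries with suffix R1 or none, squares pairs of R2 libraries, colours the 3 lines, and grey diamonds the fitted mean of the 3 lines with the replicate block, with bars of 1 standard error. All 6 points of VCP lie between 0.28 and 0.52, those of DDI2 lie on both sides of 0, and the largest value is 1.44 for OGT in the R2 pair of the control line.

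VCP encodes the hexameric ATPase that pulls ubiquitinated proteins, NFE2L1 among them, out of the endoplasmic reticulum (chromosome 9, 35056064 to 35073249, minus strand, GRCh38). In the libraries with suffix R1 or none, it was at 143 FPKM in vehicle and 174 in bortezomib in the control line, 126 and 154 in KO1, and 123 and 152 in KO2. Those of R2, by line in this order, were at 78.2 and 101, 57 and 82.2, and 66.8 and 89.1. Bortezomib was above vehicle in every line, and within each set of libraries the treatments did not overlap. The fitted log2 difference was 0.36 (SE 0.08, limma adjusted p = 0.00564 with the block and 0.578 without it). The VCP promoter holds the antioxidant and the unfolded protein response core in overlapping letters, and a link of either to the level of VCP was not tested.

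SYVN1 encodes the ubiquitin ligase of the complex (chromosome 11, 65121780 to 65134533, minus strand), SEL1L the adaptor that holds the ligase and its substrates together (chromosome 14, 81471549 to 81533861, minus strand), and DERL1 a membrane protein of the exit channel (chromosome 8, 123013164 to 123042423, minus strand). SYVN1 in R1 or unsuffixed libraries was at 13.3 FPKM in vehicle and 15 in bortezomib in the control line, 12.4 and 15.6 in KO1, and 11.6 and 14.7 in KO2. Its R2 libraries were at 24.2 and 31.6, 26.1 and 35.4, and 25.6 and 30.3. Its treatments did not overlap within either set, and the log2 difference was 0.30 (SE 0.08, limma adjusted p = 0.00833 with the block, 0.665 without). DERL1 was at 11.5 and 16.5 FPKM in the control line, 11.9 and 16.9 in KO1 and 10.6 and 15.2 in KO2, and in R2 at 26.1 and 32.2, 25.8 and 29.9, and 21.1 and 23.3. It was higher in bortezomib in all 6 pairs, by 0.47 to 0.48 in the 3 pairs outside R2 and by 0.14 to 0.29 in the R2 pairs. The log2 difference was 0.34 (SE 0.09, limma adjusted p = 0.00892 with the block, 0.577 without). SEL1L was at 24.6 and 28.8 FPKM in the control line, 25.7 and 33.7 in KO1 and 21.7 and 29.3 in KO2, and in R2 at 46 and 46.9, 47.7 and 46.2, and 38.7 and 42.9. Outside R2 its bortezomib libraries were all above vehicle, and in R2 the treatments overlapped. Its log2 difference of 0.19 (SE 0.09) did not pass (limma adjusted p = 0.0998 with the block, 0.742 without). SYVN1 shares its region with MRPL49 on the opposite strand and FAU on the same strand, and DERL1 shares part with TBC1D31 on the opposite strand. Whether strand was used in counting, and how reads in a shared stretch were assigned, is not stated in the sources used here. Reads of such neighbours may thus be mixed or left out, and strand could not separate FAU from SYVN1.

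NGLY1, the peptide N-glycanase that strips N-linked glycans from extracted proteins, lies on chromosome 3 (25718944 to 25790039, minus strand) and overlaps OXSM on the opposite strand. In R1 or unsuffixed libraries it was at 4.3 FPKM in vehicle and 5.8 in bortezomib in the control line, 4.24 and 4.87 in KO1, and 4.57 and 5.29 in KO2. Its R2 levels were 3.33 and 4.96, 2.7 and 3.44, and 3.14 and 4.31. The treatments did not overlap within either set. The log2 difference over the 3 lines was 0.30 (SE 0.07, limma adjusted p = 0.00804 with the block, 0.304 without).

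DDI2, the aspartyl protease that cuts NFE2L1, lies on chromosome 1 (15617500 to 15669044, plus strand) and was the member with the smallest bortezomib difference. In R1 or unsuffixed libraries it was at 2.5 FPKM in vehicle and 2.4 in bortezomib in the control line, 3.78 and 2.98 in KO1, and 3.49 and 3.06 in KO2. In R2 it was at 1.25 and 1.58, 1.87 and 2.1, and 1.93 and 1.92. It was lower in bortezomib in 4 of 6 pairs and higher in 2. The log2 difference over the 3 lines was -0.02 (SE 0.09, limma adjusted p = 0.836 with the block, 0.963 without).

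FBXW7 and BTRC are the substrate-binding F-box proteins of SCF ubiquitin ligases that direct NFE2L1 to the proteasome. FBXW7 (chromosome 4, 152321259 to 152536101, minus strand) outside R2 was at 1.07 FPKM in vehicle and 1.49 in bortezomib in the control line, 1.2 and 1.99 in KO1, and 1.03 and 1.78 in KO2. In R2 it was at 1.01 and 1.65, 1.13 and 1.42, and 1.25 and 1.83. It was the sole member of the 10 whose 6 bortezomib libraries were all above all 6 vehicle libraries, which held for 4.35% of genes tested. Within R2 and within the rest, 4 of the 10 (VCP, SYVN1, NGLY1 and FBXW7) had no overlap, against 14.9% of genes. The FBXW7 log2 difference was 0.35 (SE 0.10, limma adjusted p = 0.0148 with the block, 0.113 without). In the blocked fit it lost the call without KO1 bortezomib R1 or without KO2 vehicle R1 (limma adjusted p up to 0.0597). BTRC (also called beta-TrCP; chromosome 10, 101354033 to 101557321, plus strand) was at 4.57 and 5.71 FPKM in the control line, 6.77 and 7 in KO1 and 5.75 and 6.22 in KO2 outside R2. In R2 it was at 2.8 and 3.51, 2.73 and 3.44, and 2.9 and 3.79. All 6 of its pairs were higher in bortezomib, by 0.04 to 0.29, yet its log2 difference of 0.20 (SE 0.08) did not pass (limma adjusted p = 0.0651 with the block, 0.707 without).

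OGT attaches O-linked N-acetylglucosamine to nuclear and cytosolic proteins, and HCFC1 is a chromatin-bound cofactor that OGT both modifies and cleaves. Both lie on chromosome X, OGT at 71533083 to 71575897 on the plus strand and HCFC1 at 153947553 to 153971807 on the minus strand. OGT outside R2 was at 25 FPKM in vehicle and 30.1 in bortezomib in the control line, 18.6 and 18.3 in KO1, and 19.7 and 30.8 in KO2. In the R2 libraries OGT was at 24.9 and 69.5, 32 and 41.8, and 38.3 and 62.4. The R2 bortezomib libraries were all above the R2 vehicle libraries, and the other libraries overlapped. The log2 difference over the 3 lines was 0.56 (SE 0.14, limma adjusted p = 0.00829 with the block, 0.346 without). HCFC1 outside R2 was at 23.9 and 39.9 FPKM in the control line, 31.3 and 27.5 in KO1, and 26.3 and 25 in KO2, and in R2 at 13.4 and 27, 16.2 and 21.7, and 21.6 and 22.9. The log2 differences of its pairs were 0.72 and 0.96 in the control line, -0.18 and 0.40 in KO1, and -0.07 and 0.09 in KO2. Its log2 difference over the 3 lines was 0.32 (SE 0.11, limma adjusted p = 0.0353 with the block, 0.471 without), and in the blocked fit the call held in 2 of the 12 fits that left out 1 library (adjusted p up to 0.117).

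In the control line alone, 0 of the 10 genes passed without the block, against 0.467% of all genes. Unadjusted p-values under 0.05 were found for 0 of them, against 1498 of the 12194 genes. With it, 3 of the 10 rose, where 16.1% of genes rose and 16.4% fell. They were HCFC1 (log2 difference 0.84, SE 0.19, limma adjusted p = 0.011), OGT (0.85, SE 0.24, adjusted p = 0.0265) and NGLY1 (0.41, SE 0.13, adjusted p = 0.0379). These calls rested on few libraries. HCFC1 lost its call without any 1 of the 4 control libraries (adjusted p up to 0.127), and OGT lost it without either R2 control library, when its difference was 0.26. NGLY1 kept its call in 2 of the 12 fits that left out 1 library (adjusted p up to 0.214). In KO1, 0 of the 10 passed in either fit (0.238% of genes without and 27.7% with the block), and the same held in KO2 (0.32% and 27.0%). Unadjusted p-values under 0.05 were found for 0 of the 10 in both KO lines without the block, and for 2 and 3 of them with it. Over all 12194 genes they were found for 1153 (KO1) and 1169 (KO2) without the block. With it they were found for 4989 and 4858, so the counts of the 10 did not exceed the share over all genes. The median log2 difference of the 10 was 0.33 for the control line, 0.19 for KO1 and 0.28 for KO2, and over all genes tested it was -0.01, 0.00 and -0.02.

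A call in the control line and none in the KO lines does not show that the response differed. The difference itself, the mean bortezomib response of KO1 and KO2 minus that of the control line, passed for 0 of the 10 in either fit, and for 0.0% of all genes in both. HCFC1 was the lowest, at -0.78 (SE 0.24 with the block, limma adjusted p = 0.267, unadjusted p = 0.00925, and adjusted p = 1.0 without). OGT followed at -0.44 (SE 0.30, limma adjusted p = 0.665 with the block). The other 8 lay between -0.17 and 0.10. Unadjusted values below 0.05 were found for 0 of the 10 without the block and for HCFC1 alone with it. Over all 12194 genes they were found for 115 without the block and 1305 with it. The blocked count of the 10 was thus near the share over all genes.

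The knockout of NFE2L1 itself went with no called change in its processing genes. In vehicle, 0 of the 10 passed without the block (0.344% of all genes) or with it (6.18%). Unadjusted p-values under 0.05 were found for 0 and 2 of them, and for 561 and 2644 of the 12194 genes. The median of the 10 was 0.02 without the block, against 0.04 for all genes. In bortezomib, 0 of the 10 passed without the block (0.164% of genes) or with it (7.66%). In both fits 0 of the 10 had an unadjusted p-value under 0.05, against 697 and 2879 of the 12194 genes. The median of the 10 was then -0.07 without the block and -0.12 with it, against 0.05 and 0.06 for all genes. The standard errors of the 10 were 0.14 to 0.26 with the block, larger than the 0.07 to 0.14 of the bortezomib comparison over the 3 lines. NFE2L1 itself was at -2.57 in vehicle (limma adjusted p = 0.0662) and at -2.73 with the block (adjusted p = 0.000112). With the block, KO and control lines are tied mainly through the R2 libraries, since R1 occurs in KO groups alone and the absence of a suffix in control groups alone.

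**Figure D3:**
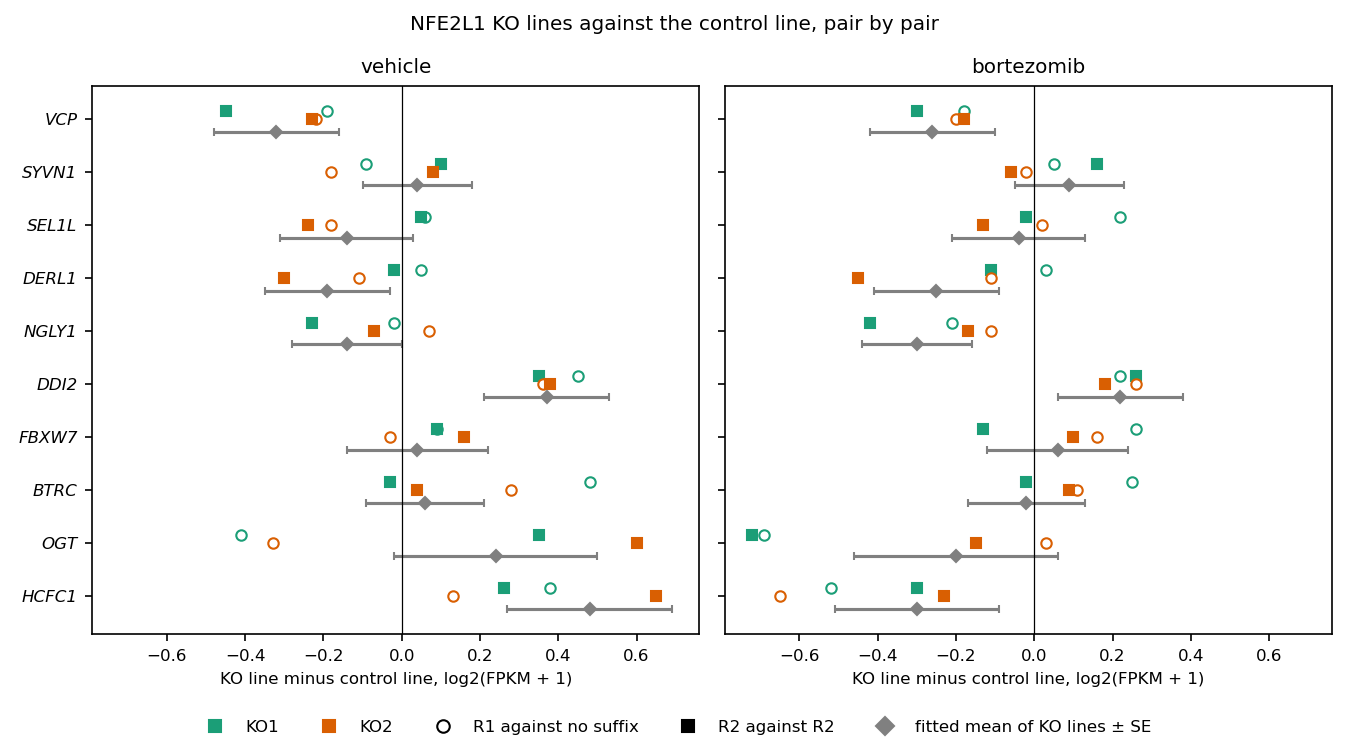
Difference in log2(FPKM + 1) between a KO library and the control library set beside it (horizontal axis), in vehicle (left) and bortezomib (right). Squares compare R2 with R2 and circles R1 with the unsuffixed control library, green is KO1 and orange KO2, and grey diamonds show the fitted mean of the KO lines with the replicate block, with bars of 1 standard error; these means follow the R2 pairs more than the others. DDI2 lies right of 0 in all 4 pairs of both panels, and HCFC1 lies right of 0 in vehicle and left of 0 in bortezomib.

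Pair by pair, the numbers of genes that kept 1 direction were near those over all genes tested, so they are given as values and set no member apart. The 4 pairs of a comparison share 2 control libraries, so they are not independent. In vehicle, DDI2 and HCFC1 were higher in the KO library of all 4 pairs, which held for 21.7% of genes tested, and VCP was lower in all 4, against 16.3%. The DDI2 libraries given above were at 1.25 and 2.5 FPKM in the control line and at 1.87 to 3.78 in the KO lines, a log2 difference of 0.35 to 0.45 by pair. The fitted value was 0.39 (SE 0.32, limma adjusted p = 1.0) without the block and 0.37 (SE 0.16, adjusted p = 0.226) with it. HCFC1 was higher by 0.13 to 0.65 and VCP lower, at -0.45 to -0.19. In bortezomib, 1 of the 10, DDI2, was higher in all 4 pairs, by 0.18 to 0.26, against 29.7% of genes. NGLY1 (-0.42 to -0.11), VCP (-0.30 to -0.18) and HCFC1 (-0.65 to -0.23) were lower in all 4, against 21.6%. These 2 sets of pairs use different libraries, and HCFC1 lay on opposite sides of 0 in them, although the interaction test given above did not pass.

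The partners of the machinery were examined from lists of named genes, 50 of which were tested, to place the 10 among the genes they work with. The lists were chosen with earlier results of these data known, so shares within them are a description and no independent test. For bortezomib over the 3 lines, 4 of the 50 rose and 1 fell without the block, where 11.6% of all genes were called. With the block, 22 rose and 12 fell, where 27.0% of all genes rose and 27.9% fell. In each line alone 0 of the 50 passed without the block. The list with the highest share of rises was that of VCP cofactors and shuttle factors, where 9 of 10 rose with the block (median 0.54, against -0.01 for all genes) and 2 of 10 without it. NPLOC4 and UFD1 form the dimer that brings ubiquitinated substrates to VCP. NPLOC4 outside R2 was at 32 FPKM in vehicle and 92.6 in bortezomib in the control line, 30.2 and 53.3 in KO1, and 29.5 and 54.6 in KO2, and in R2 at 24.3 and 87.3, 22.6 and 46.8, and 27.7 and 53.6. It rose by 1.15 on the log2 scale over the 3 lines (SE 0.20, limma adjusted p = 0.00742 without the block). Under bortezomib it was lower in both KO lines (46.8 to 54.6) than in the control (87.3 and 92.6). UFD1 rose by 0.78 (SE 0.17, adjusted p = 0.0171 without the block), from 4.88 to 10.5 FPKM in the unsuffixed control pair and from 3.72 to 5.71 in the R1 pair of KO1.

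Among 19 other genes of ER-associated degradation, 6 rose and 7 fell with the block, where 27.0% of all genes rose and 27.9% fell. These numbers were near those over all genes. Without the block 2 rose and 1 fell, where 11.6% of all genes were called. HERPUD1, a membrane scaffold of the SYVN1 complex, rose by 1.37 (SE 0.27, limma adjusted p = 0.0128 without the block) and SELENOK, a small selenoprotein of the same membrane, by 0.84 (SE 0.21, adjusted p = 0.032). HERPUD1 outside R2 went from 10.9 to 27.6 FPKM in the control line, from 9.9 to 33.8 in KO1 and from 10.4 to 26.3 in KO2. EDEM3, which trims mannose from glycoproteins bound for degradation, fell by 1.08 (SE 0.28, adjusted p = 0.0346 without the block). None of the 9 oligosaccharyltransferase subunits, which add N-glycans, rose. With the block 3 of them fell, near the 27.9% over all genes, and 0 fell without it. DAD1 had a log2 difference of -0.71 (limma adjusted p = 0.00037) and STT3A of -0.39 (adjusted p = 0.00434), both with the block. Of 9 SCF core subunits, kinases and related genes, 6 rose and 1 fell with the block, where 27.0% and 27.9% of all genes did. None of them was called without it. CSNK2A2, a catalytic subunit of casein kinase II, rose by 0.86 (limma adjusted p = 4.34e-05) and FBXW11, the paralog of BTRC, by 0.67 (adjusted p = 0.00148), both with the block. RBX1, the RING subunit of SCF ligases, had a difference of -0.50 (adjusted p = 0.0122). OGA, which removes what OGT attaches, rose by 0.48 (limma adjusted p = 0.00199 with the block), and HCFC2, a relative of HCFC1, was at -0.40 (adjusted p = 0.0162).

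**Figure D4:**
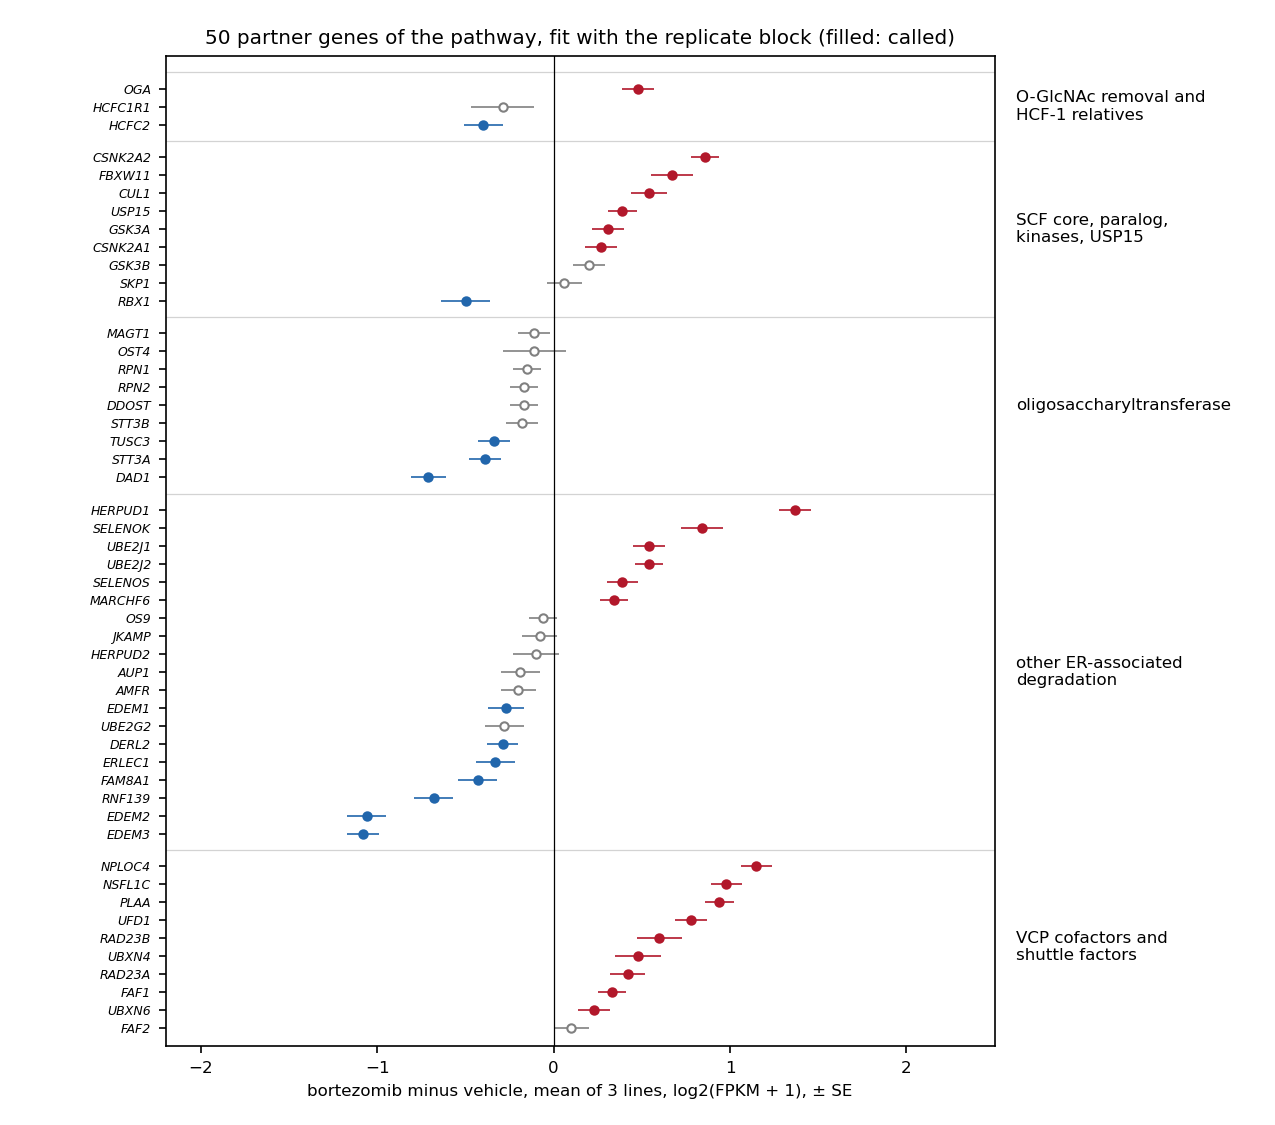
Log2 difference between bortezomib and vehicle over the 3 lines, with the replicate block, for 50 partner genes in 5 lists (horizontal axis, difference in log2(FPKM + 1), bars of 1 standard error). Filled points passed the threshold (red higher, blue lower) and open grey points did not. The 10 VCP cofactors and shuttle factors all lie right of 0, with NPLOC4 at 1.15, and the other ER-associated degradation genes spread from EDEM3 at -1.08 to HERPUD1 at 1.37.

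Between KO and control lines, 0 of the 50 partners passed without the block in either treatment. With the block, SELENOS was lower in vehicle (log2 difference -0.74, limma adjusted p = 0.0289), 1 of the 50, where 6.18% of all genes were called. In bortezomib 4 of the 50 were lower and 0 higher, where 7.66% of all genes were called, so the number of partners called was near that over all genes. They were the VCP cofactors UBXN4 (-1.07, limma adjusted p = 0.0258), FAF2 (-0.83, adjusted p = 0.0258) and NPLOC4 (-0.75, adjusted p = 0.0266) and the ER-associated degradation gene JKAMP (-0.90, adjusted p = 0.0213). For the difference in bortezomib response between KO and control lines, 0 of the 50 passed in either fit. NPLOC4 was at -0.75 there (SE 0.19, limma adjusted p = 0.196 with the block). These values of NPLOC4 were chosen after they were seen.

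The genes most like each member were sought over the 12 libraries, after the mean of the R2 libraries and that of the others had been subtracted. For NGLY1 they were PSMC5 (r = 0.979), PSMD6 (0.971) and TBCA (0.968), the first 2 of them subunits of the proteasome's regulatory particle. For VCP they were MRPS9 (0.975), PSMD14 (0.969), also a proteasome subunit, and LIMS1 (0.969). For SYVN1 they were HDAC11 (0.974), PAOX (0.973) and PGM3 (0.96), and for DDI2 TOM1L2 (0.953), PHLDA2 (0.946) and SCAF11 (0.944). The first for the others were SECISBP2L for FBXW7 (0.981), AC093110.3 for OGT (0.959), SLC37A3 for DERL1 (0.957), NFRKB for HCFC1 (0.947), SNORD67 for SEL1L (0.928) and UBXN6 for BTRC (0.919). These are the highest of 12194 genes over libraries that share treatments and lines, and they are given as a description.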

How the data were processed

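RNA from the 12 A549 libraries was made into cDNA with random hexamers, per the labels' protocols. The submitters' processing notes name CASAVA, STAR 2.5, HTSeq 0.6.1, DESeq2 and the build hg19, with no roles; the coordinates in the deposited table are those of GRCh38. The deposited values are the authors' FPKM, 1 column per library, with a length per gene. FPKM times length summed to 1000000 in each library and gave whole reads for 100% of values (within 0.02 of a read), which gave the depth (13211608 to 23819258 reads).

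Groups came from the labels. Tests were made with limma (version 3.58.1, R 4.3.3; lmFit, contrasts.fit, eBayes with trend) on log2(FPKM + 1), with 1 mean per group, all 12 libraries and no replicate term. They covered the 12194 genes whose FPKM averaged 1 or more, with Benjamini-Hochberg adjustment over all of them and a threshold of 0.05. Fold changes on this scale understate those of low genes. The replicate block used the title suffix (R1, R2 or none). R2-minus-partner differences correlated across genes by 0.8 to 0.89 between the KO groups (6 pairs) and by 0.7 to 0.89 between all groups (15 pairs). The groups thus share a difference of R2 from the rest. This cannot show which single libraries belong together, since any choice of partner would carry it.

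Alternatives were a pseudocount of 0.1, no filter, other blocks, voom (limma) on recovered reads, a common sum, no mitochondrial genes and each library left out. Named genes were all members, NFE2L1, per list the 2 largest rises and falls among genes called without the block (or else with it), and the 3 most similar genes for DDI2, NGLY1, VCP and SYVN1; the most similar gene of the other 6 was added after its value was seen. Members and lists were chosen with earlier results of these data known. DDI1, DERL3 and CSNK2B were listed but fell below the filter. Scripts used Python 3.11.15, numpy 2.4.6, pandas 2.3.3 and matplotlib 3.10.9, and the model was tested on simulated data.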

Additional observations from a re-analysis of the deposited data

How the results depend on the processing

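The replicate block decided the calls. Members called for bortezomib went from 0 to 3 in the control line and from 0 to 7 over the 3 lines with the block by title suffix, and to 3 and 7 with a block by R2 alone. With voom on recovered reads and the block, 4 were called in the control line, 2 in KO2 and 7 over the 3 lines. All genes called in these voom fits were 4584, 4036 and 7095. With a block by R2 alone, all genes called were 3968 in the control line and 6689 over the 3 lines. Many genes at large were thus called in the same fits, and these member counts alone do not set the 10 apart. The block by title suffix changed no call of a member in the other 5 comparisons. All genes called rose with the block from 57 to 3952 in the control line, from 29 to 3378 in KO1, from 39 to 3297 in KO2, from 1415 to 6690 over the 3 lines, from 42 to 754 (KO in vehicle) and from 20 to 934 (KO in bortezomib). Without the block, pseudocount 0.1, no filter, voom, a common sum and leaving out mitochondrial genes each called 0 of the 10 in all 7 comparisons. Over these settings all genes called were 11 to 124 in the control line, 12 to 64 in KO1, 24 to 96 in KO2, 1108 to 1550 over the 3 lines, 28 to 53 for KO in vehicle, 17 to 97 for KO in bortezomib and 0 to 7 for the interaction (123 with voom and the block). The blocked control-line count was between 0 and 3 when 1 library was left out: 0 without either R2 control library and 1 without either unsuffixed one. These extra blocked fits were chosen after seeing the data. Of 616 other alternative values, 558 kept direction and side of the threshold, 50 passed it newly and 8 changed sign. The 8 were SYVN1 for KO in vehicle (0.04 with the block, 0.04 with voom and the block, 0.02 without mitochondrial genes), SEL1L for KO in bortezomib (-0.04 and -0.04 in both blocked fits), BTRC for KO in bortezomib (-0.02 and -0.03 in the same fits) and FBXW7 for the interaction (-0.01 without mitochondrial genes). None of these was called, and the cause was not tested. Without the block, leaving out 1 library unbalances R2 against the rest, and 118 of 924 values then changed sign. For bortezomib in the control line the log2 ranges were DDI2 -0.24 to 0.40, VCP -0.11 to 0.76, SYVN1 -0.25 to 0.78, SEL1L -0.31 to 0.56, DERL1 -0.17 to 0.95, BTRC -0.03 to 0.54 and NFE2L1 -0.07 to 0.97. In KO1 they were DDI2 -0.44 to 0.29, NGLY1 -0.04 to 0.47, VCP -0.16 to 0.97, SYVN1 -0.20 to 0.93, SEL1L -0.27 to 0.60, DERL1 -0.19 to 0.87, BTRC -0.38 to 0.68, OGT -0.40 to 0.75 and HCFC1 -0.35 to 0.57. In KO2 they were DDI2 -0.38 to 0.23, VCP -0.07 to 0.79, SYVN1 -0.26 to 0.81, SEL1L -0.12 to 0.69, DERL1 -0.16 to 0.77, BTRC -0.20 to 0.59 and HCFC1 -0.13 to 0.15, and over the 3 lines DDI2 -0.15 to 0.10. For KO in vehicle they were NGLY1 -0.21 to 0.08, VCP -0.70 to 0.16, SYVN1 -0.43 to 0.39, SEL1L -0.51 to 0.36, DERL1 -0.65 to 0.47, BTRC -0.08 to 0.47, OGT -0.18 to 0.28 and HCFC1 -0.04 to 0.75. For KO in bortezomib they were VCP -0.60 to 0.17, SYVN1 -0.48 to 0.55, SEL1L -0.32 to 0.37, DERL1 -0.62 to 0.30, BTRC -0.18 to 0.39 and OGT -0.97 to 0.21. For the interaction they were DDI2 -0.48 to 0.16, VCP -0.38 to 0.49, SYVN1 -0.46 to 0.57, SEL1L -0.34 to 0.54, DERL1 -0.62 to 0.49, FBXW7 -0.06 to 0.10, BTRC -0.37 to 0.20 and OGT -1.03 to 0.16. Standard errors for bortezomib in the control line were 0.22 (FBXW7, with the fewest reads) to 0.63 without the block. The highest with it was 0.24 (OGT). The log2(FPKM + 1) scale shrinks differences of low genes such as FBXW7, so these values do not show how read number bears on precision.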
